A study of Mus musculus with 7 samples.

Results

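Foxj1, Rfx2, Rfx3, Rfx4, Mcidas, Gmnc and Ccno encode regulators of cilium number and of the ciliary gene program. These 7 genes, of 54532 in the deposited tables, were taken as a named list and matched by symbol, and all 7 were found and passed the filter on low counts. Multiciliated cells switch on a cascade in which GMNC (also called GEMC1) and MCIDAS (multicilin), which bind no DNA themselves, join the cell cycle factors E2F4 or E2F5 and induce CCNO, the centriole amplification genes and FOXJ1. FOXJ1, a forkhead factor, and RFX factors, which bind the X-box motif, then drive genes of motile cilia and of cilium assembly in general. Olfactory sensory neurons also carry many cilia, which grow from the dendritic knob and hold the odorant receptors, and they are born from progenitors that still divide.

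The data were RNA sequencing libraries of FACS-sorted mouse olfactory epithelium cells. The 3 libraries of mature olfactory sensory neurons were from OMP-GFP mice at postnatal day 2 (P2), P7 and P16. The 4 libraries of intermediate progenitors, which express Neurog1, were from Neurog1-GFP mice at P3, P7, P9 and P16. Every library was made from a pool of purified cells, the labels name no treatment, and the GFP lines are named without their constructs. Population and mouse line coincide and cannot be told apart. A population has 1 library at each age, and its ages were used as replicates. Nothing says that the libraries came from separate animals, so p-values measure only the spread between these libraries.

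Counts on genes ranged from 24203965 to 25930727 per library. Labels were checked with markers of each population. Of 10 progenitor markers, 9 were called lower in mature neurons, beside 30.0% of all genes tested (edgeR, adjusted p under 0.05). Of 10 mature neuron markers, 9 were called higher, beside 28.8%. Omp, which gave the OMP-GFP line its name, was the marker that did not separate the populations, with 1370 ± 285 TPM (transcript abundance scaled for length and to a fixed total; SD, n = 3) in mature neurons and 1995 ± 480 TPM in progenitors (SD, n = 4). Neurog1 was at 0.84 to 1.85 TPM in mature neurons and at 292 to 698 TPM in progenitors. The mature neuron markers summed to 14080 to 18520 TPM in mature neurons and still to 5145 to 7735 TPM in progenitors. The progenitor markers summed to 1010 to 1402 TPM and to 4089 to 4608 TPM. The part of more mature cells in the progenitor levels of the regulators was not tested. In bulk libraries, fewer cells of a type and less RNA per cell cannot be told apart.

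The regulators fell into 3 patterns. Foxj1, Rfx2, Rfx3 and Rfx4 were higher in mature neurons, Gmnc and Mcidas were higher in progenitors, and Ccno did not differ detectably. Across all 17975 genes tested, 28.8% were called higher in mature neurons, 30.0% were called lower and 58.8% were called in either direction (edgeR quasi-likelihood test, Benjamini-Hochberg adjusted p under 0.05). The 4 higher and 2 lower regulators were also those whose TPM ranges did not overlap between populations. The shares of all genes tested whose CPM did not overlap were 29.2% for higher, 32.2% for lower and 61.4% in either direction. Folds below are log2 values of mature neurons over progenitors from the edgeR fit on counts, whose median over all genes tested was 0.01. Positions are those of the GRCm38 annotation, and none of the 7 genes shares exon sequence with another annotated gene.

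**Figure D1:**
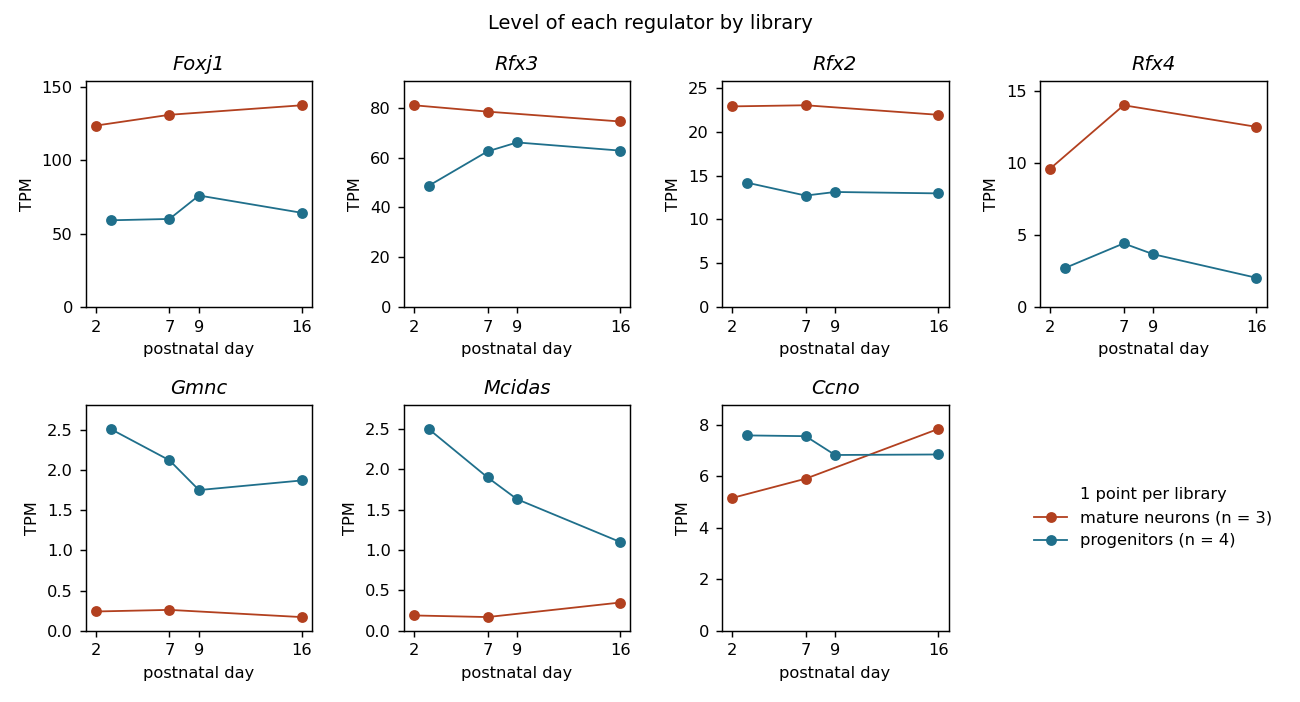
TPM (vertical axes, from 0) of the 7 regulators against postnatal day, with 1 point per library and lines joining libraries of a population. Foxj1 and the 3 Rfx genes lie higher in the 3 mature neuron libraries than in any of the 4 progenitor libraries, Gmnc and Mcidas lie lower, and the Ccno points interleave.

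Foxj1, the forkhead regulator of motile cilium genes (chromosome 11, 116330704 to 116335399, minus strand), was the most abundant of the 7. It stood at 123.73, 131.10 and 137.60 TPM in the mature neuron libraries of P2, P7 and P16, and at 59.17, 60.09, 76.07 and 64.23 TPM in progenitors at P3, P7, P9 and P16. Every mature neuron library was above every progenitor library, and the P9 library was the highest of the progenitors. The means were 130.8 ± 6.94 TPM (SD, n = 3) and 64.9 ± 7.77 TPM (SD, n = 4), a ratio of 2.02. The edgeR log2 fold was 1.13 (SE 0.10, 95% interval 0.91 to 1.36, adjusted p = 4.34e-05). In mature neurons only 2.55% of all genes in the table had a higher mean TPM, against 5.79% in progenitors.

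Rfx3 (chromosome 19, 27761721 to 28011166, minus strand), an RFX factor of cilium assembly genes, was the most abundant RFX gene. Its levels were 80.99, 78.43 and 74.48 TPM in the mature neuron libraries of P2, P7 and P16 and 48.66, 62.48, 66.07 and 62.79 TPM in progenitors at P3, P7, P9 and P16. The populations did not overlap, but the gap between the lowest mature and the highest progenitor library was small, and the P3 library was the lowest of the progenitors. The log2 fold of 0.49 (SE 0.10, 95% interval 0.26 to 0.73, edgeR adjusted p = 0.00368) was the smallest of the 6 called regulators.

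Rfx2 (chromosome 17, 56775897 to 56831013, minus strand), which acts with FOXJ1 on motile cilium genes, had the least spread relative to its mean in each population. Its values were 22.91, 23.04 and 21.95 TPM in the mature neuron libraries of P2, P7 and P16 and 14.21, 12.73, 13.14 and 12.98 TPM in progenitors at P3, P7, P9 and P16. The means of 22.6 ± 0.60 TPM (SD, n = 3) and 13.3 ± 0.65 TPM (SD, n = 4) gave a log2 fold of 0.91 (SE 0.07, 95% interval 0.75 to 1.07, edgeR adjusted p = 2.59e-05).

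Rfx4 (chromosome 10, 84756062 to 84906538, plus strand), an RFX factor known from the developing brain, showed the largest positive fold of the 7. It was at 9.62, 14.04 and 12.54 TPM in the mature neuron libraries of P2, P7 and P16, and at 2.71, 4.43, 3.68 and 2.04 TPM in progenitors at P3, P7, P9 and P16. All 3 mature neuron libraries were above all 4 progenitor libraries. The log2 fold was 2.05 (SE 0.23, 95% interval 1.53 to 2.57, edgeR adjusted p = 0.000131). Genes called at a log2 fold of 2 or more made up 2.90% of all genes tested. Markers of ensheathing glia moved the same way. Of 9, 8 were tested and 6 were called higher in mature neurons, beside 28.8% of all genes tested. The list summed to 53.8, 68.7 and 125.2 TPM in mature neurons and to 22.2 to 40.9 TPM in progenitors. The glial sum was above every progenitor library in all 3 mature neuron libraries and highest at P16. Without the P16 mature neuron library the Rfx4 log2 fold was 1.97 (edgeR adjusted p = 0.000218). The P2 and P7 libraries kept in that fit also had glial sums above every progenitor library, so it does not remove the glial difference. The part of glia in the Rfx4 result was not tested.

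Rfx4 was also a regulator with part of an X-box motif before its start. The stretch upstream is shown with the match to GTTGCTA in capitals, 5′ to 3′ on the plus strand (RefSeq, GRCm38.p6, chr10:84755798-84756035).

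Rfx4: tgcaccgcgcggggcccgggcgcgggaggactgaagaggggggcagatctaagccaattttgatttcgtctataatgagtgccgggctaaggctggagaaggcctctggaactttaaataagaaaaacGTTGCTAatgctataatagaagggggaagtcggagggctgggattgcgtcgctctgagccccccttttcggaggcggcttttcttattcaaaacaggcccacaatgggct

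The match lies at -122 to -116 from the start, and 3.16% of 32851 RefSeq promoters hold GTTGCTA on either strand within the 250 bases before the start. A match of letters is a description and was not measured as binding.

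Gmnc, which heads the multiciliation cascade (chromosome 16, 26913553 to 26991652, minus strand), was close to the lower end of detection in mature neurons. It was at 0.24, 0.26 and 0.17 TPM there at P2, P7 and P16 (15, 16 and 10 counts), and at 2.51, 2.12, 1.75 and 1.87 TPM in progenitors at P3, P7, P9 and P16 (149, 108, 92 and 117 counts). Every progenitor library was above every mature neuron library, and P3 was the highest. The mean in progenitors was 9.24 times that in mature neurons. The log2 fold was -2.90 (SE 0.27, 95% interval -3.53 to -2.28, edgeR adjusted p = 6.26e-05). Genes called at -2 or below made up 6.13% of all genes tested. On log2(TPM + 1), where low values are compressed, the difference was -1.32 (limma adjusted p = 0.000147).

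Mcidas, the coactivator that acts next in the cascade, was also higher in progenitors. It was at 0.19, 0.17 and 0.35 TPM in the mature neuron libraries of P2, P7 and P16 (10, 6 and 12 counts), and at 2.50, 1.90, 1.63 and 1.10 TPM in progenitors at P3, P7, P9 and P16 (105, 75, 66 and 47 counts). The ranges did not overlap, and among progenitors the value was lower at each later age. The log2 fold was -2.78 (SE 0.38, 95% interval -3.64 to -1.92, edgeR adjusted p = 0.000374), and -1.15 on log2(TPM + 1) (limma adjusted p = 0.00124).

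Ccno, cyclin O, which is needed for mass production of centrioles, did not separate the populations. It was at 5.15, 5.90 and 7.83 TPM in the mature neuron libraries of P2, P7 and P16 and at 7.58, 7.55, 6.82 and 6.84 TPM in progenitors at P3, P7, P9 and P16. The P16 mature neuron library was the highest of the 7 and the other mature neuron libraries were the lowest. The log2 fold was -0.01 (SE 0.18, 95% interval -0.43 to 0.41, edgeR adjusted p = 0.978), and it was 0.33 with the P16 library as the only mature neuron library (adjusted p = 0.219).

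Ccno and Mcidas are neighbours on chromosome 13, so the difference in their patterns was set beside the other genes of the locus. Ccno (112987802 to 112990777) ends 3067 bases before Mcidas (112993845 to 113000394), both on the plus strand, and Cdc20b (113035111 to 113091195), which encodes a regulator of centriole release in multiciliated cells, begins 34716 bases after Mcidas ends. Cdc20b was at 0.16, 0.56 and 0.20 TPM in the mature neuron libraries of P2, P7 and P16, and at 1.08, 1.32, 1.49 and 1.20 TPM in progenitors at P3, P7, P9 and P16, with no overlap. Its log2 fold was -2.38 (SE 0.30, edgeR adjusted p = 0.000272). Cdc20b was close to the lower end of detection in mature neurons, at 0.21 to 0.34 CPM, and over all settings run its log2 fold ranged from -2.63 to -0.81. Of 9 protein-coding genes lying wholly or partly within 200000 bases on each side of Mcidas, 8 were tested and 3 were called lower in mature neurons, beside 30.0% of all genes tested: Mcidas, Cdc20b and Gzma, a granzyme gene, with a log2 fold of -0.88 (adjusted p = 0.0065). Plpp1, a lipid phosphatase gene, was called higher at 0.64 (adjusted p = 0.0231), beside 28.8% called higher over all genes. Nothing particular to the locus can be read from these counts. Ccno, Mtrex, Dhx29 and Gpx8 were not called, with log2 folds of -0.01, -0.07, -0.14 and 0.70, and Gzmk was not tested because of low counts.

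The stretches before the starts of these neighbours are printed to set the X-box letters beside their unlike patterns. Capitals mark matches to the X-box consensus or to its beginning GTTGCCA, which overlap in Ccno; both are plus strand, 5′ to 3′, from RefSeq (GRCm38.p6), Ccno at chr13:112987552-112987801 and Mcidas at chr13:112993662-112993690.

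Ccno: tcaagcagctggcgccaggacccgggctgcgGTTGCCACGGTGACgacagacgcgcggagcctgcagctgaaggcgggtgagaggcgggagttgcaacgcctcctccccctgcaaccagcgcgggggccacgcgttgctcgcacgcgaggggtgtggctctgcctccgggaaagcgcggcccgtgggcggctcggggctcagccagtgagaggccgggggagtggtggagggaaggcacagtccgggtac

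Mcidas: ggggaagccagGTTGCCAggttggttaac

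The full X-box match of Ccno lies at -219 to -206 from the start and the GTTGCCA of Mcidas at -195 to -189. The full pattern is found in 1.82% of the 32851 promoters and GTTGCCA in 3.66%, on either strand. Of the 7 regulators 6 have an entry among the RefSeq promoters, with 8 promoters in all; no entry was found for Foxj1. None of the 8 held the forkhead letters GTAAACA or GTCAACA, which 3.17% and 2.07% of all promoters hold, or the E2F letters TTCCCGC or TTGGCGC, held by 3.82% and 1.97%. The CCAAT box, written CCAAT and present in 33.8% of all promoters, was found before Rfx2, Rfx4 and Gmnc.

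Set in order by mean TPM, the mature neurons ran Foxj1, Rfx3, Rfx2, Rfx4, Ccno, Mcidas and Gmnc. The ranges of neighbours were separate down to Ccno against Mcidas, and those of Mcidas and Gmnc overlapped. In progenitors the order was Foxj1, Rfx3, Rfx2, Ccno, Rfx4, Gmnc and Mcidas. There the ranges of Foxj1 and Rfx3 overlapped, with Foxj1 above Rfx3 in 3 of 4 libraries, as did those of Rfx4 with Gmnc and of Gmnc with Mcidas. Foxj1 thus stood clear of Rfx3 in mature neurons alone, and Ccno and Rfx4 changed places between the populations.

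The RFX family was compared as a whole by its summed TPM. Rfx3 held 53.3% ± 2.02 of the summed TPM of Rfx1 to Rfx8 in mature neurons (SD, n = 3) and 50.02% ± 3.41 in progenitors (SD, n = 4). Rfx2, Rfx3 and Rfx4 together held 78.0%, 76.3% and 76.8% at P2, P7 and P16 in mature neurons and 60.9%, 63.9%, 66.4% and 64.3% at P3, P7, P9 and P16 in progenitors. These 3 genes together thus took a larger share in every mature neuron library than in any progenitor library. The share of Rfx3 alone overlapped, at 51.8% to 55.6% in mature neurons and 45.2% to 52.9% in progenitors. Rfx1, a broadly expressed member, moved the other way: it was at 7.39, 8.46 and 7.57 TPM in the mature neuron libraries of P2, P7 and P16, against 13.65, 14.94, 13.50 and 12.93 TPM in progenitors at P3, P7, P9 and P16. Its log2 fold was -0.74 (SE 0.08, edgeR adjusted p = 0.000154).

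Of the other RFX family genes and their complex partners, 5 of 7 were tested, with 1 called higher and 2 lower and a median log2 fold of -0.10. Over all genes tested 28.8% were called higher and 30.0% lower, so nothing particular to these genes can be read from the counts. Rfx7 was called lower at -0.23 (edgeR adjusted p = 0.0339), and the call was lost without the P2 or P16 mature neuron library or the P7, P9 or P16 progenitor library (adjusted p 0.0575 to 0.119). Rfxank, which joins RFX5 and RFXAP on promoters of antigen presentation genes, was called higher at 0.65 (adjusted p = 0.0179), a call lost without the P16 mature neuron library (0.44, adjusted p = 0.0503) or the P7 progenitor library (0.57, adjusted p = 0.0521) and on log2(TPM + 1) (0.39, limma adjusted p = 0.0867). Rfx5 (log2 fold 0.00) and Rfxap (-0.10) were not called. Rfx6 was listed at 0 TPM in all 7 libraries, and Rfx8 had 0 counts throughout (0.10 TPM in 1 library).

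**Figure D2:**
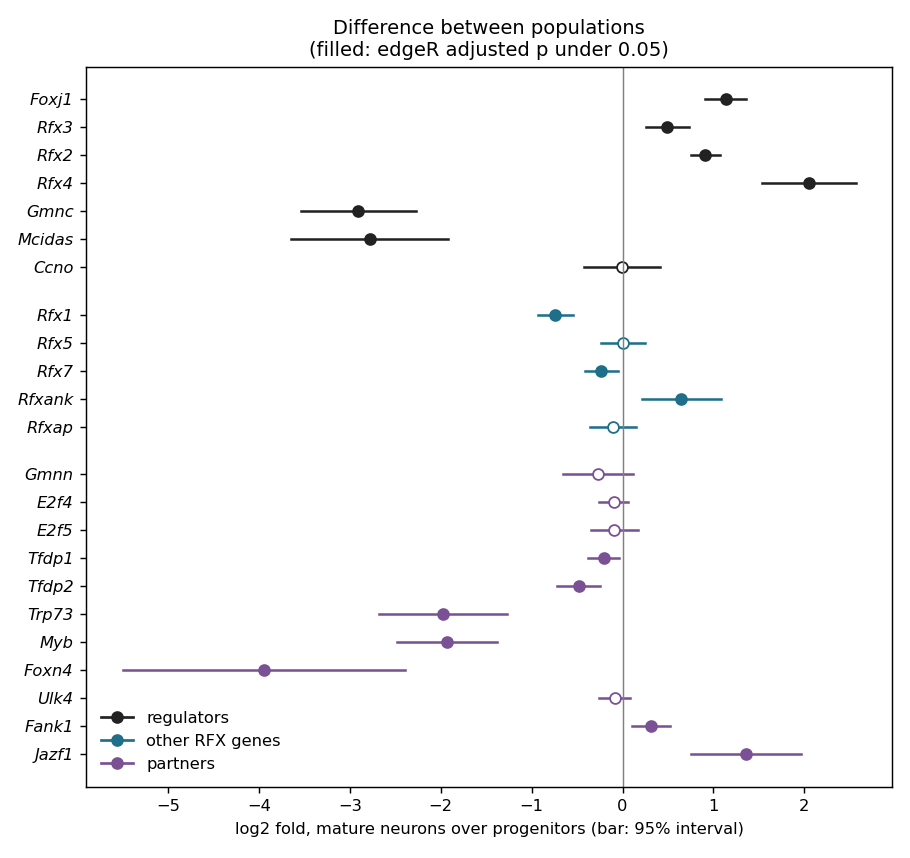
Log2 fold of mature neurons over progenitors (horizontal axis) with 95% intervals from the edgeR fit for the 7 regulators, 5 other RFX genes and 11 partner genes; filled points passed an adjusted p of 0.05. Gmnc and Mcidas lie near -2.90 and -2.78, with Foxn4, Trp73 and Myb on the same side, whereas Foxj1, Rfx2, Rfx3 and Rfx4 lie above 0.

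Partners and upstream factors of the cascade were next set beside Gmnc and Mcidas. Of 11 such genes, 5 were called lower in mature neurons, 2 higher and 4 were not called, with a median log2 fold of -0.21. Over all genes tested, 30.0% were called lower and 28.8% higher. Trp73, which encodes p73, was at 0.99, 1.02 and 0.48 TPM in the mature neuron libraries of P2, P7 and P16 and at 4.52, 4.92, 3.63 and 2.62 TPM in progenitors at P3, P7, P9 and P16 (log2 fold -1.98, SE 0.31, edgeR adjusted p = 0.000781). Myb, a factor of cycling progenitors that also promotes centriole amplification, was at 2.43, 2.05 and 1.08 TPM against 8.26, 8.56, 8.09 and 6.83 TPM (log2 fold -1.93, SE 0.24). Foxn4, a forkhead factor that acts beside FOXJ1 in multiciliated cells, was at 0.13, 0.06 and 0.04 TPM against 2.02, 1.20, 0.97 and 0.52 TPM (log2 fold -3.94, SE 0.68, adjusted p = 0.0013). None of these 3 overlapped between the populations. In CPM, 6 of the 11 genes lay lower in mature neurons without overlap and 2 higher, beside 32.2% and 29.2% of all genes tested. Foxn4 was close to the lower end of detection in mature neurons, at 0.04 to 0.25 CPM. Over all settings run its log2 fold ranged from -4.88 to -0.97.

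Transcripts of the proteins through which GMNC and MCIDAS reach DNA had smaller folds. E2f4 was at 31.74 ± 1.004 TPM in mature neurons (SD, n = 3) and 37.9 ± 2.11 TPM in progenitors (SD, n = 4), with a log2 fold of -0.10 (95% interval -0.25 to 0.06, edgeR adjusted p = 0.246). On log2(TPM + 1) it was called lower (-0.25, limma adjusted p = 0.0172). E2f5 had a log2 fold of -0.09 (95% interval -0.35 to 0.17), and Gmnn, which encodes geminin, a relative of GMNC and MCIDAS that binds both, one of -0.27 (95% interval -0.65 to 0.11). Tfdp1 and Tfdp2, which encode dimer partners of E2F proteins, were called lower at -0.21 (adjusted p = 0.0382) and -0.48 (adjusted p = 0.00404); the Tfdp1 call was lost without any 1 of the 3 mature neuron libraries or of the P3, P9 and P16 progenitor libraries (adjusted p up to 0.109), and the Tfdp2 call with the P16 library as the only mature neuron library (-0.27, adjusted p = 0.0618). Ulk4 was not called (-0.09). Fank1 was called higher at 0.31 (adjusted p = 0.017), but not on log2(TPM + 1) (0.19, limma adjusted p = 0.11). Jazf1 was called higher at 1.36 (adjusted p = 0.00247), and not with the P16 library as the only mature neuron library (0.92, adjusted p = 0.0804).

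The centriole amplification list followed the direction of Gmnc and Mcidas. Of 22 genes tested of 23, 14 were called lower in mature neurons and 3 higher, with a median log2 fold of -0.62. Over all genes tested, 30.0% were called lower and 28.8% higher. Stil, a cartwheel factor of new centrioles, was at 2.06 ± 0.85 TPM in mature neurons (SD, n = 3) and 69.0 ± 14.2 TPM in progenitors (SD, n = 4), with a log2 fold of -5.12 (SE 0.32). Cep152, a scaffold for PLK4, had a log2 fold of -2.88 (SE 0.18), Cenpj, a centriole elongation factor, one of -2.73 (SE 0.10), and Hyls1, a centriole protein, one of -2.05 (SE 0.11). Plk4, the kinase that starts centriole duplication and a gene chosen after its values were seen, was at 14.5 ± 6.18 TPM in mature neurons (SD, n = 3) and 122.5 ± 11.6 TPM in progenitors (SD, n = 4). These genes also serve the duplication of centrioles in any dividing cell, and Mki67 and Top2a, markers of dividing cells, were lower in mature neurons too, with log2 folds of -2.76 and -3.36. The part of dividing cells in the centriole result was not tested.

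The 3 genes of the list called higher were Cetn4, Cetn2 and Spice1. Cetn4, a centrin, was at 12.3 ± 1.43 TPM in mature neurons (SD, n = 3) and 5.16 ± 0.36 TPM in progenitors (SD, n = 4; log2 fold 1.35, SE 0.15). Cetn2, another centrin, was called higher at 0.35 (adjusted p = 0.00083), and Spice1 at 0.37 (adjusted p = 0.0437), a call lost on log2(TPM + 1), where the difference was 0.02, with the P16 mature neuron library left out (0.18, adjusted p = 0.112) and with the P3, P7 or P9 progenitor library left out (adjusted p 0.0963 to 0.103).

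Deup1, which builds the deuterosome, the structure specific to mass centriole production, was at 1.58, 2.03 and 0.55 TPM in the mature neuron libraries of P2, P7 and P16 and at 1.01, 0.57, 0.62 and 0.47 TPM in progenitors at P3, P7, P9 and P16. The P2 and P7 mature neuron libraries were high and the P16 library lay within the progenitor range. The log2 fold was 1.04 (SE 0.48, edgeR adjusted p = 0.0949) and 1.38 without the P16 mature neuron library (adjusted p = 0.0191). It was 0.86 with age as a covariate (adjusted p = 0.0344) and -0.09 with the P16 library as the only mature one. A full X-box match was present before Deup1, as before Ccno, at -87 to -74.

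Docking of basal bodies at the membrane showed no common direction. Of 11 genes, 3 were called higher and 2 lower, with a median log2 fold of -0.04. Over all genes tested 28.8% were called higher and 30.0% lower, so nothing particular to docking genes can be read from these counts. Cep83 and Cep164, which encode distal appendage proteins, were called higher at 0.74 and 0.29, and Ift20, an intraflagellar transport gene, at 0.44. The Cep164 call was lost on log2(TPM + 1) (0.13, limma adjusted p = 0.385) and without the P7 mature neuron library (0.24, adjusted p = 0.0549). Odf2, a basal body appendage gene, and Cby1, which encodes a protein of the cilium base, were called lower at -0.39 and -0.30. The Cby1 call was lost without the P2 or P7 mature neuron library or the P7 or P16 progenitor library (adjusted p 0.0539 to 0.0934).

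Most genes of the FOXJ1 and RFX programs had the direction of Foxj1, Rfx2, Rfx3 and Rfx4. Of 30 motile cilium genes of the FOXJ1 program, 28 were called higher in mature neurons, 1 was lower and 1 was not called. Among all genes tested, 28.8% were called higher and 30.0% lower. The median log2 fold of the 30 genes was 1.24, beside 1.13 for Foxj1. With the P16 library as the only mature neuron library 25 were called higher. Lrrc6, needed for dynein arm assembly, was at 40.72, 37.98 and 35.69 TPM in the mature neuron libraries of P2, P7 and P16 and at 11.81, 12.26, 14.99 and 12.57 TPM in progenitors at P3, P7, P9 and P16 (log2 fold 1.67, SE 0.09, edgeR adjusted p = 8.36e-06). Rsph9, a radial spoke head gene, had a log2 fold of 1.04 (SE 0.06), Enkur one of 1.59 (SE 0.11) and Cfap52 one of 2.10 (SE 0.15). Dnaaf3, another dynein assembly factor, was the gene called lower, at -0.99 (adjusted p = 0.0199; 0.0508 without the P16 mature neuron library), and Cfap43 was not called (-0.16).

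Cilium assembly genes of the RFX program mostly had the same direction, with a smaller median fold. Of 37 genes, 30 were called higher and 1 lower, beside 28.8% and 30.0% of all genes tested. The other 6 were not called, and the median log2 fold was 0.58. The same number, 30, was called higher with the P16 library as the only mature neuron library. Bbs7, a gene of the BBSome cargo complex, rose from 46.6 ± 3.24 TPM in progenitors (SD, n = 4) to 93.3 ± 2.92 TPM in mature neurons (SD, n = 3), with a log2 fold of 1.11 (SE 0.06). Kif17, a kinesin of ciliary transport, was at 24.29, 25.47 and 21.79 TPM in the mature neuron libraries of P2, P7 and P16 and at 7.22, 7.30, 9.39 and 7.70 TPM in progenitors at P3, P7, P9 and P16 (log2 fold 1.74, SE 0.11). Tulp3, an adaptor for ciliary membrane proteins, and Bbs5, another BBSome gene, had log2 folds of 0.92 (SE 0.06) and 0.99 (SE 0.07). Tmem67, a transition zone gene, was the gene called lower, at -0.33 (adjusted p = 0.00218).

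The X-box pattern was searched for in these lists too. It was found before 5 of the 31 RFX program genes with a promoter entry and before 4 of 22 FOXJ1 program genes, where 1.82% of all promoters hold it. Bbs7 holds GTTGCCTTGGAAAC at -121 to -108 from its start, a match on both strands. The lists were drawn from knowledge of RFX and FOXJ1 targets, so X-boxes in them are not independent evidence.

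**Figure D3:**
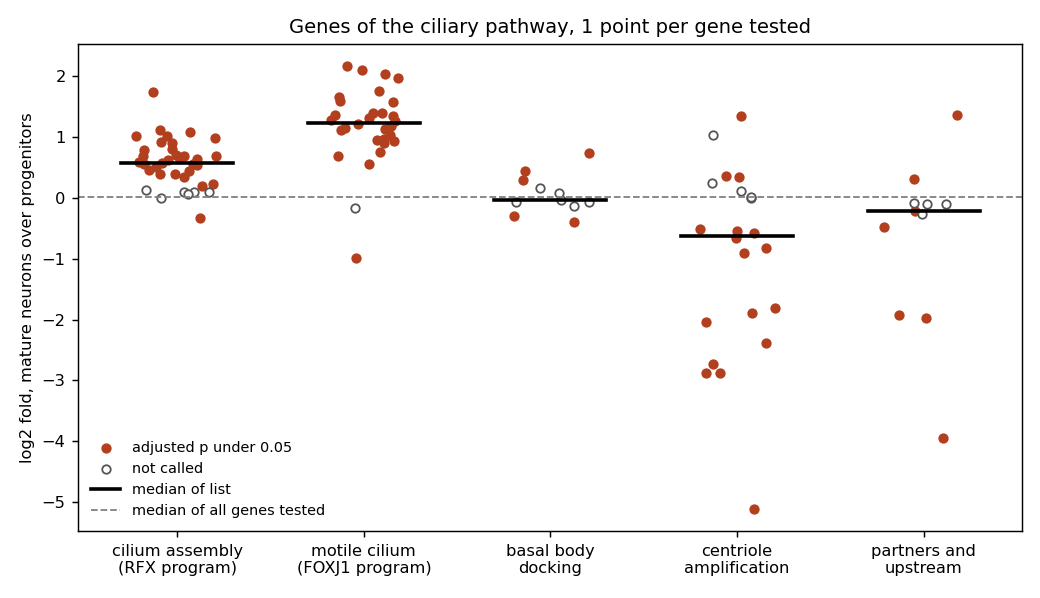
Log2 fold of mature neurons over progenitors for each gene tested of 5 lists of the ciliary pathway, with the median of each list (bar) and of all genes tested (dashed line). The medians run from 1.24 for the FOXJ1 program and 0.58 for the RFX program to -0.62 for centriole amplification.

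Markers of multiciliated respiratory or ependymal cells were examined beside Foxj1, because such cells express the same regulators. All 19 markers of that list had a count in every mature neuron library and 18 or 19 in the progenitor libraries. Of the 17 tested, 13 were called higher in mature neurons, beside 28.8% of all genes tested. The whole list summed to 360.8, 362.5 and 373.5 TPM in the mature neuron libraries of P2, P7 and P16 and to 242.3, 300.6, 337.8 and 323.2 TPM in progenitors at P3, P7, P9 and P16. Tekt2 and Dnah5 of this list were called lower, with log2 folds of -1.97 and -0.62, beside 30.0% of all genes tested. Fam183b and Dnah12 were tested and not called, with log2 folds of -1.21 and 0.73.

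A subset of 6 of the 19 markers (Tmem212, Cdhr3, Cdhr4, Sntn, Fam216b and Ccdc153) was chosen after the values were seen and is given as a description only. Summed, they were at 29.6, 27.3 and 10.3 TPM in the mature neuron libraries of P2, P7 and P16 and at 3.39, 4.79, 5.73 and 4.01 TPM in progenitors at P3, P7, P9 and P16, where Cdhr3 was listed at 0 TPM at P9. In every mature neuron library the sum of the 6 was above that of every progenitor library, a difference that choosing by value favours. The part of multiciliated cells in the folds of the regulators and of the FOXJ1 and RFX program genes was not tested. Log2 folds with the P16 library as the only mature neuron library were 1.24 for Foxj1, 0.91 for Rfx2 and 0.47 for Rfx3. They were 2.19 for Rfx4, -3.35 for Gmnc and -2.42 for Mcidas. This setting was chosen after the data were seen, and it assumes that the lone library varies like the others. The P16 library had the highest sum of the 19 markers, 373.5 TPM, and its sum of the 6 was above every progenitor library. The setting therefore does not remove the markers of multiciliated cells.

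**Figure D4:**
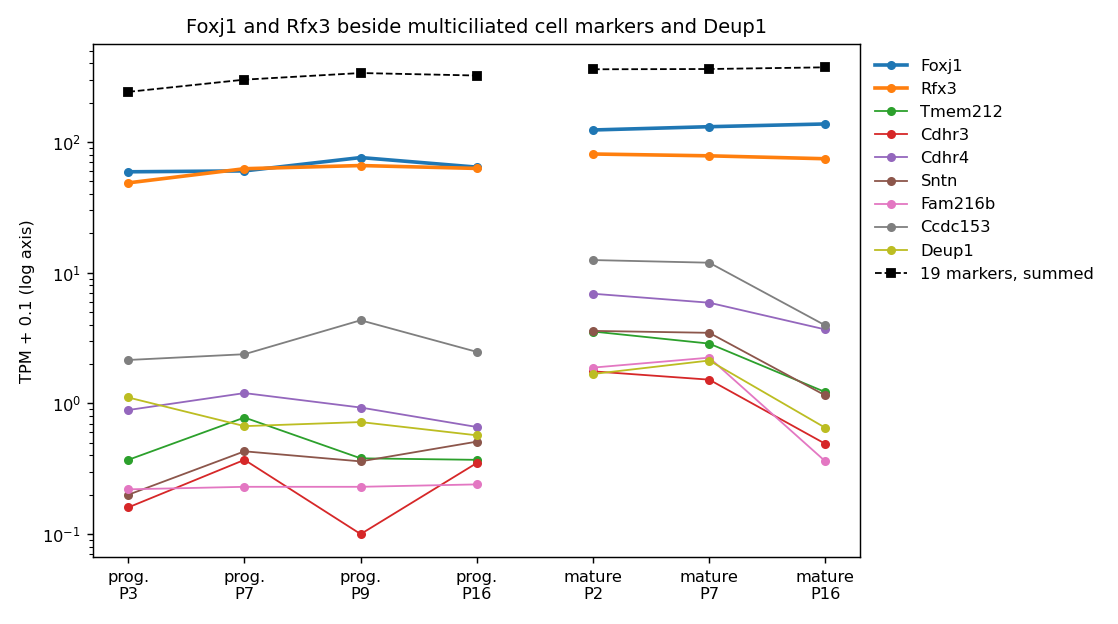
TPM + 0.1 (log axis) of Foxj1, Rfx3, 6 markers of multiciliated cells chosen after their values were seen, Deup1 and the summed list of 19 markers (dashed) in each of the 4 progenitor and 3 mature neuron libraries, in order of age. From P2 to P16 in mature neurons Foxj1 goes from 123.73 to 137.60 TPM and Rfx3 from 80.99 to 74.48 TPM, the 19 markers sum to 360.8 and 373.5 TPM and the 6 to 29.6 and 10.3 TPM.

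Markers of other cell types were counted too. Over all genes tested, 28.8% were called higher in mature neurons and 58.8% in either direction. Leukocyte markers summed to 51.6, 34.7 and 159.8 TPM in the mature neuron libraries of P2, P7 and P16 and to 14.5 to 44.9 TPM in progenitors, with 7 of 10 tested called higher in mature neurons. Sustentacular cell markers summed to 3142 to 4091 TPM in mature neurons and to 2002 to 3183 TPM in progenitors, with 5 of 10 called higher, and 0 of 7 horizontal basal cell markers were called. The part of leukocytes and sustentacular cells in the folds of the regulators was not tested.

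Change with age was asked of both populations together, as a slope per doubling of postnatal day. No regulator was called, and neither was any of the 17975 genes (edgeR; 3746 genes, or 20.8%, had an unadjusted p under 0.05, and limma on log2(TPM + 1) also called 0). Without the P7 mature neuron library 367 genes were called higher with age and 619 lower, none of them a regulator. The slopes were 0.07 for Foxj1, -0.01 for Rfx2, 0.06 for Rfx3, 0.14 for Rfx4, 0.05 for Ccno, -0.16 for Gmnc and -0.24 for Mcidas (adjusted p 0.382 to 0.871).

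Within the 4 progenitor libraries alone, an alternative added after the values were seen, Mcidas had a slope of -0.47 per doubling of age (95% interval -0.79 to -0.14, unadjusted p = 0.0113, edgeR adjusted p = 0.226). Foxn4 had one of -0.79 (95% interval -1.18 to -0.40, adjusted p = 0.145) and Trp73 one of -0.46 (95% interval -0.69 to -0.23, adjusted p = 0.154). Gmnc (-0.17) and Myb (-0.14) had smaller values, and Rfx3 had a slope of 0.16 (adjusted p = 0.315). In this fit 0 of 16625 genes were called and 2241 had an unadjusted p under 0.05, so none of these slopes passed. The difference of slopes between populations was 0.53 for Mcidas, 0.31 for Ccno and -0.17 for Rfx3, and no regulator and no gene was called (edgeR adjusted p 0.806 to 0.997 for the 7; 1075 genes, or 5.98%, had an unadjusted p under 0.05; limma called 0).

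Genes with the most similar pattern were sought for each regulator by Pearson correlation of log2 CPM over the 7 libraries, among 14038 genes. The libraries fall into 2 populations, so the separation of the populations by both genes enters every r, and r is given as a description. For Foxj1 the closest were Acad11 (r = 0.999), Ccdc40, a motile cilium gene (0.998), and Cds1 (0.998), and 1567 genes exceeded 0.95. For Rfx2 they were Prdx3 (0.999), Tspan3 (0.999) and Spag16, an axoneme gene (0.999), and for Rfx4 Diras1, Tnfrsf19 and Slc24a2 (0.997, 0.997 and 0.997). Rfx3, with its low P3 progenitor value, had fewer close genes (196 above 0.95), led by Mtx3, Clpb and Ptpn4 (0.998, 0.997 and 0.994).

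On the progenitor side, Gmnc was closest to Sf3a3, a splicing factor gene (0.9996), Trp53bp1 (0.999) and Dlgap4 (0.999), with 2061 genes above 0.95. Mcidas was closest to Vipr1 (0.998), Ceacam1 (0.997) and Zbtb16 (0.996). Ccno, which did not separate the populations, had 3 genes above 0.95, Ttc33, Ccbe1 and Tmem39a (0.968, 0.966 and 0.960).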

How the data were processed

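Poly(A) RNA of sorted cells was extracted with TRIzol and made into libraries with a TruSeq Stranded mRNA kit, per the labels' protocols. Tools named in the submitters' processing notes are RSEM, STAR 2.6.1c and bcl2fastq 2.18, with the build mm10. No strand setting or annotation release is given in the sources used here. The authors deposited a table of read counts per gene and a table of TPM values for the same genes. The counts include 4 entries that name no gene, which held 23.5% to 27.2% of each library's total and were left out.

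Counts were tested with edgeR 4.0.16 (R 4.3.3; TMM scaling, filterByExpr, quasi-likelihood test, Benjamini-Hochberg adjustment over all genes tested, 0.05). Models were population (all 7 libraries), population plus log2 of the postnatal day (age slope), and their interaction, which leaves 3 residual degrees of freedom. CPM are TMM-scaled. Alternatives were RLE scaling, DESeq2 1.42.0, no filter, limma 3.58.1 on log2(TPM + 1) and log2(TPM + 0.1) of genes with TPM of at least 1 in 3 libraries, each library left out, and P7 and P16 libraries with age as a block. Another alternative took log2 of the postnatal day as a covariate of the population difference. Labels carry no replicate numbers, so no block was in the main test. The scripts were tested on simulated data. Gene positions are from GENCODE and promoters from RefSeq (GRCm38, the build of mm10); 8 motifs were searched in 250 bases before each start.

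The 7 regulators and the gene lists were chosen with earlier results of these data known. Named genes were the 7, all other RFX genes and partners, up to 4 called genes with the smallest p per direction of each pathway list, Deup1, Cdc20b and the neighbours of Mcidas; others were chosen after their values were seen. Counting error at a few reads limits Gmnc, Mcidas, Foxn4 and Cdc20b in mature neurons.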

Additional observations from a re-analysis of the deposited data

Results flagged for a closer look

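In the 4 progenitor libraries, 1 library stood apart from the others for 2 of the 7 regulators in CPM by Dixon's criterion, which chance meets in about 1 of 20 groups. Rfx3 was at 226.9 CPM in the P3 library, against 292.4, 305.0 and 293.7 CPM at P7, P9 and P16. Ccno was at 9.04 CPM in the same library, against 7.46, 7.55 and 7.29 CPM. In TPM neither gene met the criterion: Rfx3 was at 48.66 TPM at P3, against 62.48, 66.07 and 62.79 TPM, and Ccno at 7.58 TPM, against 7.55, 6.82 and 6.84 TPM. Without the P3 library the log2 fold of Rfx3 was 0.40 (edgeR adjusted p = 0.00141) and that of Ccno 0.07 (adjusted p = 0.784).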

How the results depend on the processing

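The 6 regulators called between the populations kept their direction and call in every alternative run. Of all called genes 49.0% were higher in mature neurons by edgeR on counts and 39.0% on log2(TPM + 1), where the median of all genes was -0.11. Leaving out each library gave 4584 to 5323 genes called higher and 4781 to 5449 lower. For Rfx2 the log2 ratio of mean levels was 0.77 in TPM and 0.91 in CPM.

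Pairing the P7 and P16 libraries, with age as a replicate block, gave 4723 genes higher and 4608 lower and the same 6 regulators; the block gave Ccno 0.17, Rfx5 -0.0039 and Rfxap 0.0065, added the call of Deup1 (1.18, adjusted p = 0.045) and ended those of Rfx7, Tfdp1, Cby1, Fank1 and Dnaaf3 (adjusted p 0.0512 to 0.165). With the P16 library as the only mature one the log2 folds were 0.33 for Ccno, -0.0869 for Deup1, -0.17 for Rfx5 and 0.0134 for Rfxap. RLE scaling gave 0.0033 for Ccno and 0.0060 for the difference of Foxj1 slopes. Age as a covariate gave -0.0148 for Rfx5 and 0.86 for Deup1 (edgeR adjusted p = 0.0344). Leaving out each library gave -0.22 to 0.10 for Ccno, -0.0352 to 0.0826 for Rfx5 and -0.17 to 0.0048 for Rfxap. None of these values was called except Deup1 under the block and with age as a covariate, and the cause of the changes of sign was not tested.

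Genes called by age numbered 315 higher and 455 lower with no filter, 438 and 686 on untransformed days, and 0 to 367 and 0 to 619 with each library left out. The difference of slopes gave 0 to 1 and 0 to 2 genes. With each library left out, age slopes ran from -0.023 to 0.0070 for Rfx2, -0.0051 to 0.13 for Rfx3 and -0.0817 to 0.15 for Ccno, which was -0.13 in progenitors alone. Differences of slopes ran from -0.0771 to 0.0535 for Foxj1, -0.0654 to 0.068 for Rfx2, -0.28 to 0.0056 for Rfx3, -0.22 to 0.53 for Rfx4 and -0.39 to 0.26 for Gmnc. No regulator was called in any of these.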
